A study of Mus musculus with 12 samples.

Results

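The 35 genes described here mark the smooth muscle, connective tissue and blood vessels of the gut wall, and they were chosen by symbol from 55891 genes in a table of mouse ileum. They comprise 14 smooth muscle genes, 17 genes of the stroma (fibroblasts and the matrix they make) and 4 genes of vessel endothelium. Each gene matched 1 row of the table. RNA came from mucosa scraped off the ileum of 12 mice at baseline, and each mouse gave 1 library. The labels name the genotypes ERBB3-dIE and Erbb3-FF and place the mice in 2 litters: litter A held ERBB3-dIE mice 4, 5 and 6 and Erbb3-FF mice 3, 4, 5 and 6, and litter B held ERBB3-dIE mice 1, 2 and 3 and Erbb3-FF mice 1 and 2. Not given in the sources used here are the alleles behind these names, the promoter of any Cre, and the age of the mice. What the 2 genotypes share besides the litters is likewise not stated. The question for these genes is whether their level differs between the genotypes, in each litter and over both.

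Smooth muscle contracts when calcium activates myosin light chain kinase, which phosphorylates the light chain of smooth muscle myosin and lets it pull on actin filaments. In the gut this muscle lies in the outer wall and in a thin sheet at the base of the mucosa, with fine strands inside the villi. Fibroblasts and pericytes between epithelium and muscle lay down collagens, proteoglycans and fibronectin, and endothelial cells line the capillaries of each villus. A scraping is taken for the epithelium, so the amount of this deeper tissue in it can vary from mouse to mouse.

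Levels are in TPM, a transcript abundance scaled by gene length and library total, so that they can be compared between genes. Each library sums to 1000000 TPM and the number of reads behind it is unknown. Between 12344 and 13364 genes reached 1 TPM in a library. Erbb3 had 104 to 206 TPM in the 6 ERBB3-dIE libraries and 87.3 to 151 TPM in the 6 Erbb3-FF libraries. Which part of the gene is deleted is not given in the sources used here, and a value for the whole gene does not check the loss of a part. Pmp22, named in the series title, had 135 to 250 TPM in ERBB3-dIE mice and 548 to 790 TPM in Erbb3-FF mice without overlap. The epithelial markers Epcam and Vil1 were at 480 TPM or above in every library.

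Several libraries stood apart in these genes. Without Acta1 and Mylk, which followed another course, the smooth muscle genes summed to 229 and 236 TPM in ERBB3-dIE mice 4 and 5 and to 14.5 to 81.2 TPM in the other 10 libraries. With these 2 genes included, ERBB3-dIE mouse 1 had the highest sum, at 495 TPM, beside 296, 299 and 292 TPM in ERBB3-dIE mice 4, 5 and 2. Erbb3-FF mouse 1 was the highest of its genotype for this sum and for the stroma (182 TPM) and vessel genes (8.56 TPM). It was also the highest of all 12 libraries in Ptprc, the pan-leukocyte gene (30.3 TPM), and in the B cell gene Cd79a (67.4 TPM). The sum of 13 leukocyte genes was higher in ERBB3-dIE mouse 6, at 824 TPM, than in Erbb3-FF mouse 1, at 726 TPM. Of that sum Jchain alone made up 699 TPM in ERBB3-dIE mouse 6 and 238 TPM in Erbb3-FF mouse 1. By the mean of these genes on the log2 scale, Erbb3-FF mouse 1 was the highest of all 12 libraries. That mean was 4.80 in Erbb3-FF mouse 1 and 3.17 in ERBB3-dIE mouse 6. Erbb3-FF mouse 3 was the lowest of its genotype in litter A for 12 of 14 smooth muscle genes, 13 of 17 stroma genes and 2 of 4 vessel genes, against 34.1% of all tested genes. In litter B Erbb3-FF mouse 1 was above Erbb3-FF mouse 2 for 32 of the 35 members (54.8% of all tested genes).

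**Figure D1:**
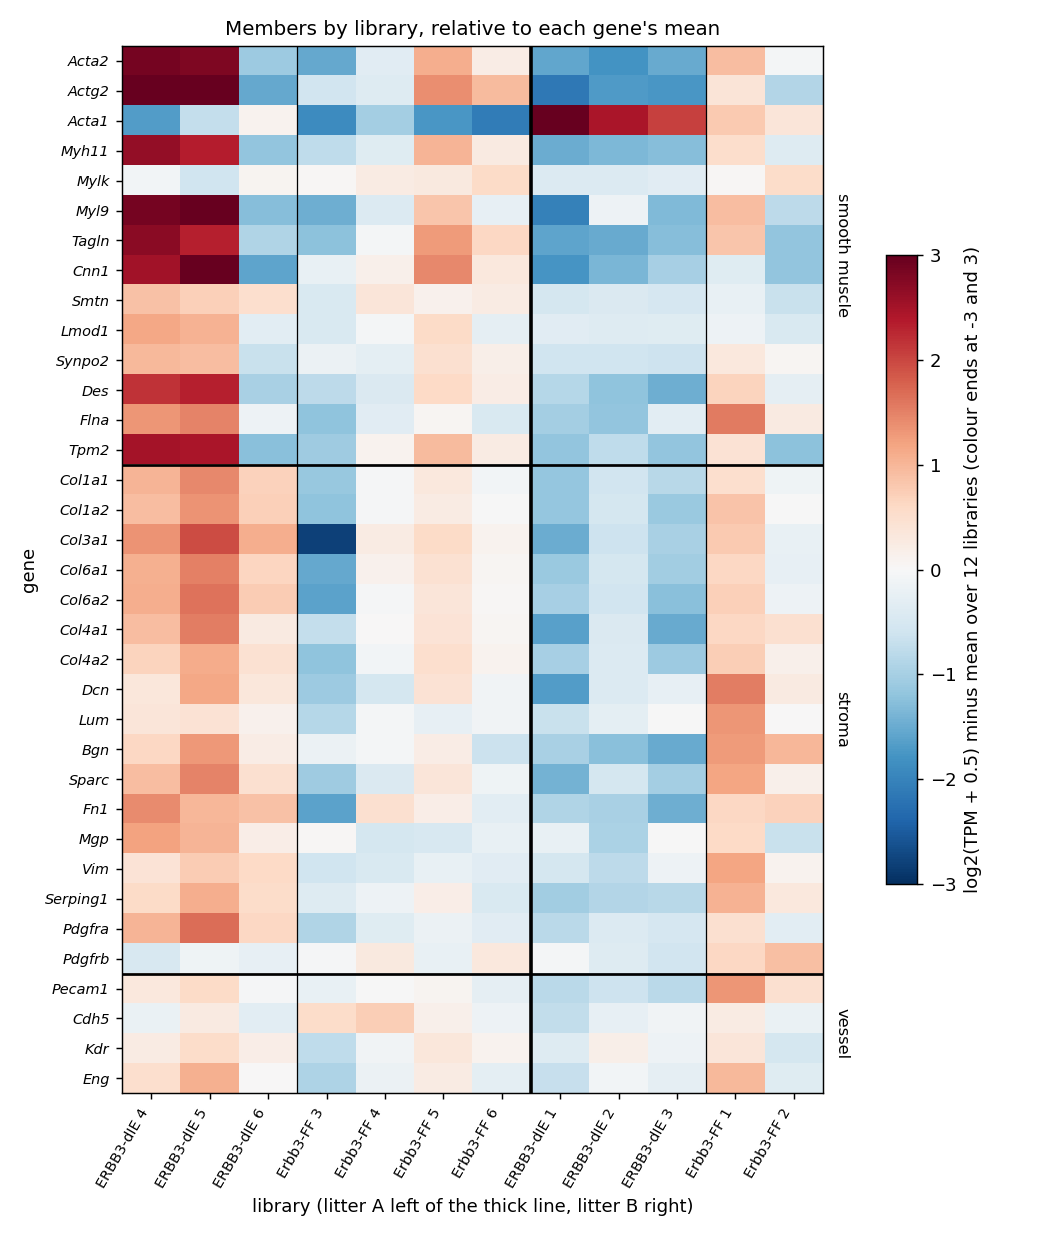
Each row is 1 of the 35 genes and each column 1 mouse; colour gives log2(TPM + 0.5) minus the gene's mean over the 12 libraries, with ERBB3-dIE mice left of Erbb3-FF mice in each litter. Most smooth muscle rows are darkest red in ERBB3-dIE mice 4 and 5, stroma rows are red in ERBB3-dIE mice 4, 5 and 6 and in Erbb3-FF mouse 1, and Acta1 is red in litter B.

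The contractile genes were highest in 2 of the 6 ERBB3-dIE mice. For 11 of the 14 smooth muscle genes ERBB3-dIE mice 4 and 5 were both above all the other 10 libraries, a pattern that 4.17% of all tested genes had, and Acta1, Mylk and Flna did not show it. In the same litter ERBB3-dIE mouse 6 lay below mice 4 and 5 and within or below the range of the Erbb3-FF mice for 11 of 14 (19.1% of all tested genes). With bulk RNA, more muscle cells in a scraping and more of these transcripts per muscle cell cannot be told apart.

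Acta2, the alpha actin of vascular and mucosal smooth muscle, had 30.6, 29.2 and 1.47 TPM in ERBB3-dIE mice 4, 5 and 6 and 0.969, 2.83, 8.47 and 4.40 TPM in Erbb3-FF mice 3 to 6. In litter B it had 0.924, 0.721 and 0.987 TPM in the ERBB3-dIE mice and 7.52 and 3.54 TPM in the Erbb3-FF mice. The lower of mice 4 and 5 was thus 3.44-fold above the highest of the other 10 libraries, while every ERBB3-dIE mouse of litter B was below both Erbb3-FF mice. Actg2, the gamma actin of gut smooth muscle, had 26.8, 28.6 and 0.633 TPM in the ERBB3-dIE mice of litter A and 1.70, 1.98, 8.09 and 5.79 TPM in the Erbb3-FF mice. Its litter B values were 0.238, 0.512 and 0.472 TPM in ERBB3-dIE mice and 3.78 and 1.28 TPM in Erbb3-FF mice.

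Myh11, the smooth muscle myosin heavy chain and the most specific marker of the list, had 8.96, 7.35 and 0.175 TPM in the ERBB3-dIE mice of litter A. Its Erbb3-FF values there were 0.399, 0.683, 2.61 and 1.35 TPM. Its litter B values were 0.0410, 0.0974 and 0.131 TPM for ERBB3-dIE mice, against 1.68 and 0.662 TPM for Erbb3-FF mice. Myh11 therefore lay at or above 1 TPM in 5 libraries, too few for the test, which asked for 6. Myl9, the regulatory light chain that myosin light chain kinase phosphorylates, had 45.5, 51.8 and 2.06 TPM in ERBB3-dIE mice 4, 5 and 6. Its Erbb3-FF values in litter A were 1.77, 4.17, 10.6 and 4.75 TPM. In litter B the ranges overlapped, with 1.02, 5.09 and 2.00 TPM for ERBB3-dIE mice and 11.3 and 3.13 TPM for Erbb3-FF mice.

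Of the actin-binding proteins of the thin filament, all but Smtn were likewise far lower in ERBB3-dIE mouse 6 than in mice 4 and 5. Tagln (transgelin) had 26.1, 19.8 and 1.66 TPM in ERBB3-dIE mice 4, 5 and 6 and 1.21 to 9.20 TPM in the Erbb3-FF mice of litter A. Cnn1 (calponin) had 10.8, 16.1 and 0.156 TPM and 1.20 to 4.83 TPM in these groups, a difference of 86.3-fold between the mean of mice 4 and 5 and mouse 6. Tpm2 (beta tropomyosin) had 28.9, 27.9 and 1.69 TPM against 2.00 to 9.56 TPM. Lmod1 (leiomodin, a nucleator of actin filaments) reached 1.03 TPM in ERBB3-dIE mouse 4, was under 1 TPM elsewhere and was not tested. Smtn (smoothelin) varied less, with 9.38, 8.38 and 7.09 TPM in the ERBB3-dIE mice of litter A and 3.41 to 6.43 TPM in the Erbb3-FF mice. It was the only smooth muscle gene for which all 3 ERBB3-dIE mice of litter A lay above all 4 Erbb3-FF mice, an order that 11.7% of all tested genes had.

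Of the cytoskeletal linkers, Des (desmin, the muscle intermediate filament) had 10.3, 11.7 and 0.725 TPM in ERBB3-dIE mice 4, 5 and 6 and 0.880 to 3.10 TPM in the Erbb3-FF mice of litter A. Synpo2 (synaptopodin 2, an actin-bundling protein) had 1.31, 1.23 and 0.0798 TPM against 0.247 to 0.777 TPM, and was not tested. Flna (filamin A, an actin crosslinker that many cell types use) had 29.2, 32.6 and 10.1 TPM against 4.63 to 11.9 TPM. Its highest library was Erbb3-FF mouse 1 of litter B, at 34.4 TPM, with 13.7 TPM in Erbb3-FF mouse 2 and 5.33, 4.71 and 8.94 TPM in the ERBB3-dIE mice of that litter.

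Acta1 and Mylk went their own way. Acta1, the alpha actin of skeletal muscle, had 12.5, 24.97 and 44.1 TPM in the ERBB3-dIE mice of litter A and 10.8, 20.1, 11.97 and 9.28 TPM in the Erbb3-FF mice. In litter B it had 437, 229 and 172 TPM in the ERBB3-dIE mice and 71.2 and 53.1 TPM in the Erbb3-FF mice. Genotypes overlapped in litter A and did not in litter B, where the ERBB3-dIE mean was 4.50-fold that of Erbb3-FF (8.73% of all tested genes had every ERBB3-dIE mouse of litter B above both Erbb3-FF mice). Both genotypes of litter B lay above every mouse of litter A. Mylk, the myosin light chain kinase, which epithelium also makes and which acts on the tension of its junctions, had 54.8, 38.4 and 62.1 TPM in ERBB3-dIE mice of litter A and 60.1, 68.9, 72.1 and 86.5 TPM in Erbb3-FF mice. In litter B its values were 44.1, 43.8 and 45.9 TPM in ERBB3-dIE mice and 60.01 and 85.1 TPM in Erbb3-FF mice, without overlap. Over the 12 libraries Acta1 had a correlation of -0.594 and Mylk of -0.133 with the mean of the other smooth muscle genes, while the remaining 12 had 0.720 to 0.984.

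Actins share most of their coding sequence, so the assignment of reads among them matters for Acta1. The cytoplasmic actins were far more abundant, with Actb at 2343 to 4415 TPM in ERBB3-dIE mice and 3019 to 5141 TPM in Erbb3-FF mice. Cardiac Actc1 was at 0.398 TPM or less in all 12 libraries. Of 11 other skeletal muscle genes none reached the test, the fast myosins Myh1, Myh2 and Myh4 were listed at 0 in all 12 libraries, and the sum of the 11 was 0.648 to 2.79 TPM in ERBB3-dIE mice and 0.505 to 3.80 TPM in Erbb3-FF mice. How reads were split among actins was not tested.

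**Figure D2:**
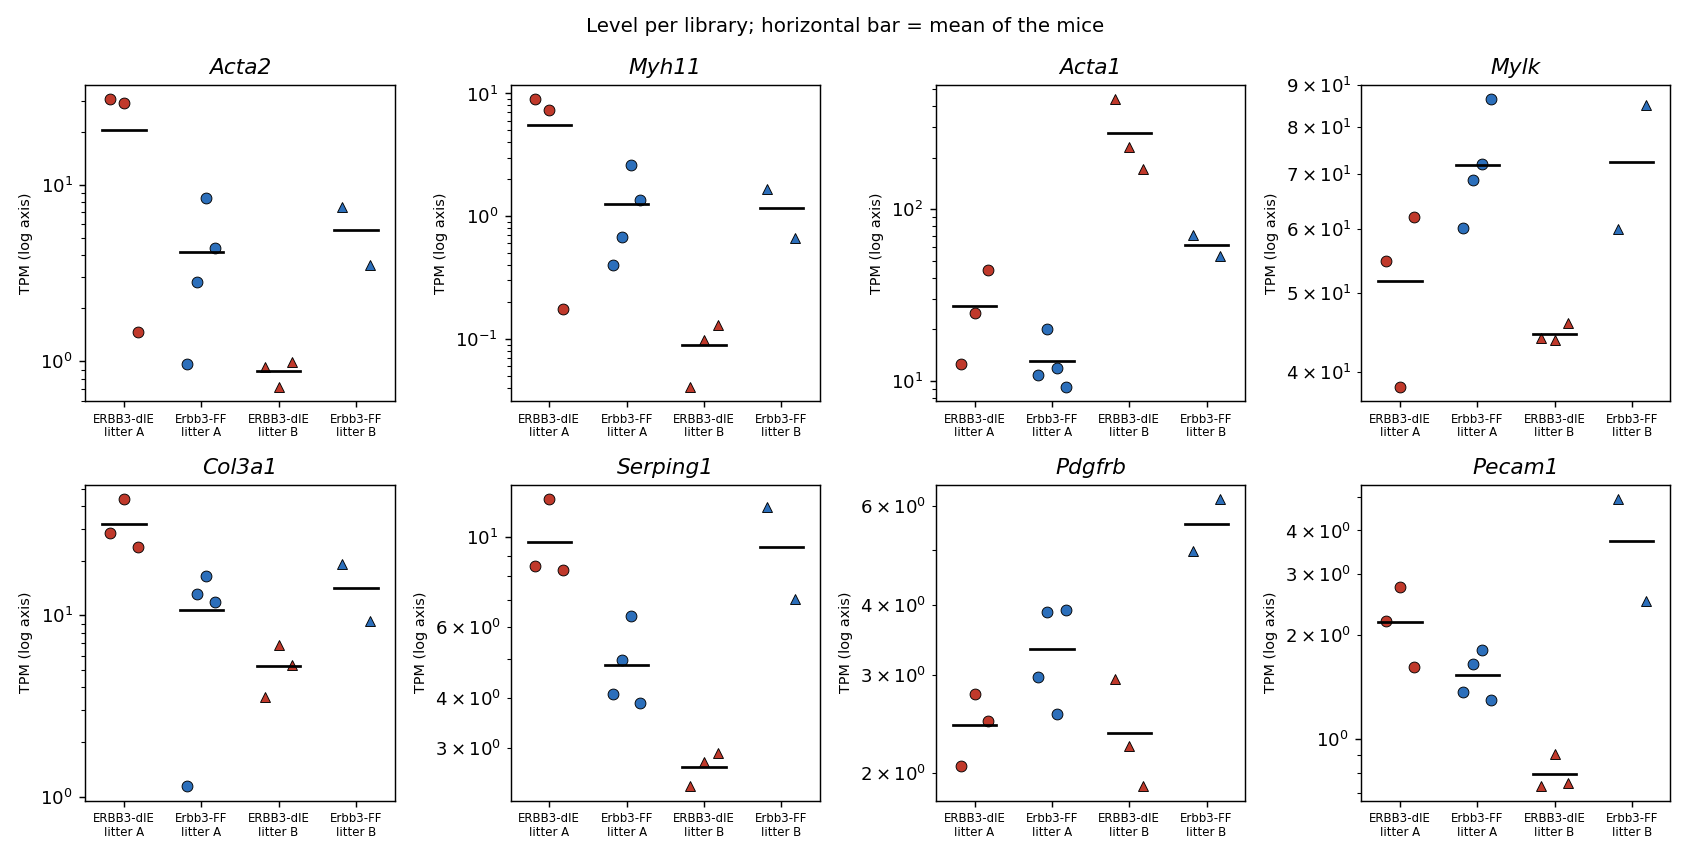
TPM on a log axis for 8 genes, 1 point per mouse, red for ERBB3-dIE and blue for Erbb3-FF, circles for litter A and triangles for litter B, with a bar at the mean of each set. Acta2 and Myh11 split the ERBB3-dIE mice of litter A into 2 high mice and 1 low one, whereas Col3a1 is at 23.9 to 43.9 TPM in all 3, and Acta1 is highest in the ERBB3-dIE mice of litter B.

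Serum response factor and its partner myocardin are known to act on contractile genes through the CArG box, 10 bases that start with CC, end with GG and hold 6 A or T bases between. The promoters of Acta2 and Myl9, which moved with the list, and of Acta1, which did not, are shown because all 3 hold such boxes when 1 central C or G is allowed. Sequences are from RefSeq, build GRCm38.p6, cover 250 bases before the start site and read 5′ to 3′ on the strand of the gene. Capitals mark boxes in which at most 1 of the 6 central bases was C or G.
Acta1 (chr8:123894776-123895025, minus strand): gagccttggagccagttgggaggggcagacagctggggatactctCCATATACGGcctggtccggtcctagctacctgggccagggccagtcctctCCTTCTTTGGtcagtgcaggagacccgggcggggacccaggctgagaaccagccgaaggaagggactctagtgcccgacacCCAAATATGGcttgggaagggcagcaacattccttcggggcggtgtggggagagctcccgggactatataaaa
Acta2 (chr19:34255374-34255623, minus strand): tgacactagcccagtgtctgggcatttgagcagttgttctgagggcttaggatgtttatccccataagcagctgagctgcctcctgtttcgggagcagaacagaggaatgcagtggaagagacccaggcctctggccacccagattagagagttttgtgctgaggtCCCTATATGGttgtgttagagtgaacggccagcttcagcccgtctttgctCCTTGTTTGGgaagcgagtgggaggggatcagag
Myl9 (chr2:156775214-156775463, plus strand): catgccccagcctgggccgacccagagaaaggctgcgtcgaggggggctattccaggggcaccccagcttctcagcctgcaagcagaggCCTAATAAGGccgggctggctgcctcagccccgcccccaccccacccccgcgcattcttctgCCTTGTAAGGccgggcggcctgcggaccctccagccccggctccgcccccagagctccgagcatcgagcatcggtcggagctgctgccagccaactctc

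The strict CArG box reads as a box on both strands and was searched without regard to overlap with other motifs. It was in 1.47% of the 32851 promoter windows of the table. Boxes with up to 1 central C or G were in 8.59%. Among the members 23 genes had a window. Of 11 smooth muscle genes with a window 2 (Acta1 and Myl9) held the strict box and 3 the relaxed one (these and Acta2), with 3 boxes in Acta1 and 2 each in the others. The 10 stroma genes with a window gave 11 windows, of which 0 held the strict box and 1 (Col1a2) the relaxed one. Both vessel genes with a window, Eng and Kdr, held a relaxed box. Acta1 and Acta2 thus both carry boxes near the start site and had different orders of libraries, and a box in a window does not show that a factor bound there.

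The stroma genes were more even within litter A and split the genotypes in opposite directions in the litters. All 3 ERBB3-dIE mice of litter A lay above all 4 Erbb3-FF mice for 13 of 17 genes (11.7% of all tested genes). ERBB3-dIE mouse 6, low in contractile genes, was itself above every Erbb3-FF mouse of litter A for 13 of 17 stroma genes and for 2 of 14 smooth muscle genes (31.0% of all tested genes). In litter B all 3 ERBB3-dIE mice lay below both Erbb3-FF mice for 16 of 17 stroma genes and 8 of 14 smooth muscle genes, against 23.7% of all tested genes, with Mgp the stroma gene that overlapped. Across both litters 0 of the 35 members separated all 6 ERBB3-dIE mice from all 6 Erbb3-FF mice, an order shown upward by 1.02% and downward by 1.43% of all tested genes.

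Among fibrillar collagens, Col3a1 was the most abundant, with 28.6, 43.9 and 23.9 TPM in the ERBB3-dIE mice of litter A and 1.14, 13.1, 16.5 and 11.8 TPM in the Erbb3-FF mice. In litter B it had 3.55, 6.88 and 5.36 TPM in ERBB3-dIE mice and 19.1 and 9.27 TPM in Erbb3-FF mice. Its ERBB3-dIE mean was 3.01-fold that of Erbb3-FF in litter A, and its Erbb3-FF mean was 2.70-fold that of ERBB3-dIE in litter B. Col1a1 and Col1a2, the chains of type I collagen, were lower throughout. Col1a1 had 3.58, 4.92 and 2.75 TPM in ERBB3-dIE mice of litter A and 0.413 to 2.01 TPM in Erbb3-FF mice. Col1a2 had 5.37, 7.46 and 4.62 TPM against 0.839 to 3.18 TPM. The microfibril collagens Col6a1 and Col6a2 had 6.21 to 11.6 and 5.89 to 11.2 TPM in ERBB3-dIE mice of litter A and 0.966 to 5.40 and 0.748 to 4.40 TPM in Erbb3-FF mice.

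Col4a1 and Col4a2, which encode the chains of basement membrane collagen, start 21 bases apart on opposite strands in the reference build. Col4a1 had 6.99, 10.8 and 4.25 TPM in the ERBB3-dIE mice of litter A and 1.90 to 4.70 TPM in the Erbb3-FF mice, with overlap. In litter B Col4a1 had 0.763, 2.40 and 0.880 TPM in ERBB3-dIE mice and 5.51 and 4.96 TPM in Erbb3-FF mice, without overlap. Col4a2 was at 0.435 to 0.988 TPM in the ERBB3-dIE mice of litter B and at 2.83 and 1.70 TPM in the Erbb3-FF mice.

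Of the small leucine-rich proteoglycans, which bind collagen fibrils and growth factors, Bgn (biglycan) had 11.7, 19.1 and 8.72 TPM in ERBB3-dIE mice of litter A and 6.53, 7.15, 8.70 and 4.58 TPM in Erbb3-FF mice. In litter B Bgn had 3.54, 2.85 and 2.27 TPM in ERBB3-dIE mice and 18.8 and 15.2 TPM in Erbb3-FF mice, a 5.90-fold higher mean in Erbb3-FF. Dcn (decorin) had 11.1, 19.9 and 11.1 TPM in ERBB3-dIE mice of litter A and 3.85 to 12.01 TPM in Erbb3-FF mice, and 2.36 to 7.22 TPM against 26.0 and 10.7 TPM in litter B. Lum (lumican) passed 1 TPM only in Erbb3-FF mouse 1, at 2.12 TPM, and was not tested.

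Among the other matrix and mesenchymal genes, Sparc (osteonectin, which binds collagen) had 11.6, 17.3 and 8.36 TPM in ERBB3-dIE mice of litter A and 2.54 to 7.68 TPM in Erbb3-FF mice. Fn1 (fibronectin) had 4.95, 3.58 and 3.27 TPM against 0.170 to 2.39 TPM in litter A, and 0.602, 0.542 and 0.246 TPM against 2.66 and 2.80 TPM in litter B. Mgp (matrix Gla protein, an inhibitor of calcification) was at 2.62 TPM or below and was not tested. Vim (vimentin, the intermediate filament of mesenchymal and immune cells) had 30.2, 39.0 and 34.6 TPM in ERBB3-dIE mice of litter A and 14.7 to 19.4 TPM in Erbb3-FF mice, so that mouse 6 was as high as mice 4 and 5. In litter B it had 15.5, 13.0 and 20.4 TPM in ERBB3-dIE mice and 51.9 and 24.5 TPM in Erbb3-FF mice. Serping1, the inhibitor of complement C1, had 8.52, 12.4 and 8.30 TPM in ERBB3-dIE mice of litter A and 4.09, 4.96, 6.39 and 3.89 TPM in Erbb3-FF mice. Its litter B values were 2.41, 2.78 and 2.91 TPM in ERBB3-dIE mice and 11.9 and 7.02 TPM in Erbb3-FF mice.

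The PDGF receptors differed from each other. Pdgfra, the receptor of villus fibroblasts, had 2.62, 4.41 and 1.85 TPM in ERBB3-dIE mice of litter A and 0.324 to 0.854 TPM in Erbb3-FF mice, but stayed under 1 TPM in 8 libraries and was not tested. Pdgfrb, the receptor of pericytes and muscle-side mesenchyme, had 2.06, 2.77 and 2.48 TPM in ERBB3-dIE mice of litter A and 2.96, 3.88, 2.56 and 3.92 TPM in Erbb3-FF mice. In litter B Pdgfrb had 2.95, 2.23 and 1.90 TPM in ERBB3-dIE mice and 4.98 and 6.17 TPM in Erbb3-FF mice. It was the 1 stroma gene with a lower ERBB3-dIE mean in both litters, and its correlation with the mean of the other stroma genes over the 12 libraries was 0.156, against 0.607 to 0.989 for the other 16.

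The vessel genes were scarce, and only Pecam1 (CD31, which leukocytes and platelets carry as well as endothelium) reached the test. Pecam1 had 2.19, 2.75 and 1.61 TPM in ERBB3-dIE mice of litter A and 1.37, 1.65, 1.81 and 1.30 TPM in Erbb3-FF mice, with overlap. In litter B it had 0.731, 0.907 and 0.744 TPM in ERBB3-dIE mice and 4.93 and 2.51 TPM in Erbb3-FF mice, without overlap. Cdh5 (VE-cadherin), Kdr (the main VEGF receptor) and Eng (endoglin, a TGF-beta coreceptor) are more specific to endothelium. Cdh5 lay between 0.131 and 1.25 TPM in all libraries, Kdr between 0.0431 and 0.840 TPM and Eng between 0.232 and 2.40 TPM, and these 3 overlapped between genotypes in both litters.

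Differences were tested with limma on log2(TPM + 0.5), for the 12605 genes that reached 1 TPM in 6 or more libraries, with p-values adjusted by the Benjamini-Hochberg method over all of them and a threshold of 0.05. This filter kept 26 members: 11 smooth muscle genes, 14 stroma genes and Pecam1. The 9 left out are Myh11, Lmod1, Synpo2, Lum, Mgp, Pdgfra, Cdh5, Kdr and Eng. All differences are ERBB3-dIE minus Erbb3-FF.

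Over both litters, with litter as a term, 1 member rose and 1 fell, where 5.36% of all tested genes were called, 1.66% higher and 3.7% lower. At an unadjusted p under 0.05 there were 3 members, against 21.8% of all tested genes. Acta1 was higher in ERBB3-dIE mice by 1.39 on the log2 scale (SE 0.36, limma adjusted p = 0.0472). Mylk fell by 0.56 (SE 0.14, limma adjusted p = 0.0398). Pdgfrb had a difference of -0.67 (SE 0.18, limma adjusted p = 0.0534) and did not pass. The authors' deposited table gives Acta1 a log2 fold change of 1.85 with an adjusted p of 0.00996, Mylk -0.58 with 0.000235, and Pdgfrb -0.72 with 0.00497, and no other member passed there. For the rest the interval was wide: Acta2 had a difference of 0.14 with a 95% confidence interval of -1.74 to 2.02, and Col3a1 of 0.60 with -0.93 to 2.12. Both calls sat close to the threshold, and each was lost in 10 of 12 fits that left out 1 mouse (limma adjusted p 0.0210 to 0.122 for Acta1 and 0.0297 to 0.103 for Mylk). Acta1 stayed past it only without ERBB3-dIE mouse 4 or Erbb3-FF mouse 4, and Mylk only without ERBB3-dIE mouse 6 or Erbb3-FF mouse 3.

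In litter A no member passed by limma, where 1.13% of all tested genes were called, although 15 of the 26 had an unadjusted p under 0.05 (19.5% of all tested genes). No other tool was run on single litters. The smallest limma adjusted p of a member was 0.0704, for both Vim (difference 1.00, SE 0.24) and Serping1 (0.94, SE 0.23). Contractile genes had differences as large with wider errors, such as Acta2 at 1.67 (SE 0.90, limma adjusted p = 0.335) and Myl9 at 1.88 (SE 1.01, limma adjusted p = 0.331). Without ERBB3-dIE mouse 6 Acta2, Cnn1 and Des passed, at limma adjusted p-values of 0.0498, 0.0482 and 0.0385. The number of all tested genes called in that fit is not given here. Over the 12 fits that left out 1 mouse, all tested genes gave 0 to 61 calls higher and 0 to 177 lower in litter A. Without Erbb3-FF mouse 2 of the other litter, which alters the shared spread, Vim passed at 0.0497.

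In litter B 3 members fell, where 0.912% of all tested genes were called. At an unadjusted p under 0.05 there were 16 of 26, against 14.5% of all tested genes. The differences were -2.38 for Bgn (SE 0.33, limma adjusted p = 0.0229), -1.60 for Serping1 (SE 0.27, limma adjusted p = 0.0310) and -1.65 for Pecam1 (SE 0.28, limma adjusted p = 0.0310). Each was lower in all 3 ERBB3-dIE mice than in both Erbb3-FF mice. Ptprc and Cd79a had that order too. Ptprc had 4.37 to 9.99 TPM in ERBB3-dIE mice and 30.3 and 14.5 TPM in Erbb3-FF mice 1 and 2. Cd79a had 2.56 to 5.44 TPM against 67.4 and 26.9 TPM. Of the 13 leukocyte genes 1 had a positive difference in litter B. Pdgfrb had a difference of -1.10 (SE 0.23, limma adjusted p = 0.0575), and Acta1 one of 2.06 (SE 0.52, limma adjusted p = 0.0907). This litter has 2 Erbb3-FF mice, and without Erbb3-FF mouse 1, which was also the highest in Ptprc and Cd79a, all 3 calls were lost, as they were without ERBB3-dIE mouse 1. Bgn held in 9 of the 12 fits that left out 1 mouse (limma adjusted p 0.0135 to 0.135), Serping1 in 5 (0.0211 to 0.244) and Pecam1 in 6 (0.0215 to 0.239). Fitted on litter B alone, none of the 3 passed, with Bgn at a limma adjusted p of 0.0516.

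**Figure D3:**
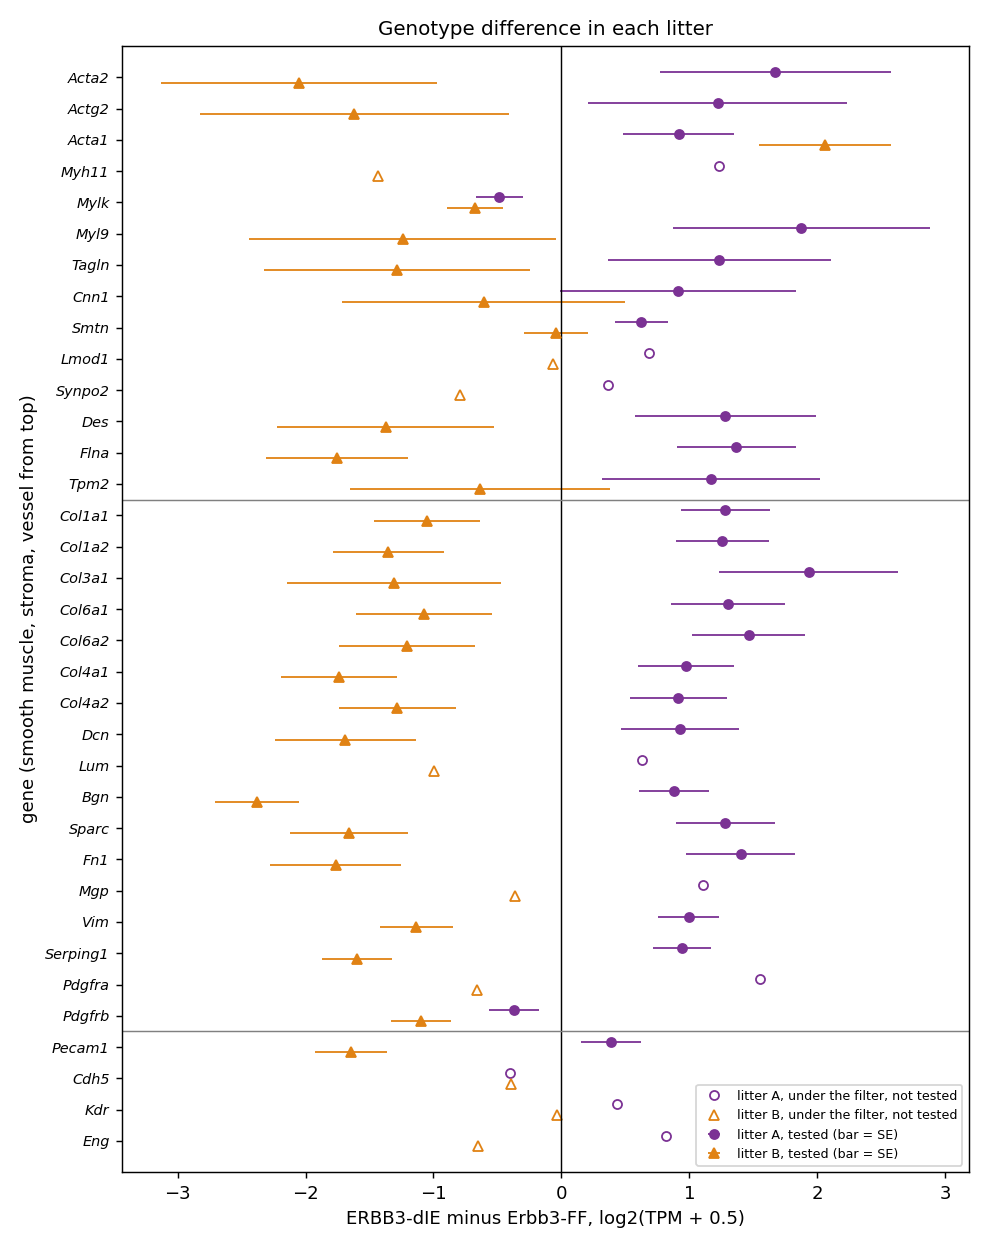
Genotype difference (ERBB3-dIE minus Erbb3-FF, log2(TPM + 0.5)) of each of the 35 genes in litter A (purple circles) and litter B (orange triangles), with bars of 1 SE for tested genes and open symbols for those under the filter. Of the 35 genes 31 lie right of 0 in litter A and left of 0 in litter B; Acta1 is right in both, and Mylk, Pdgfrb and Cdh5 are left in both.

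The direction of the genotype difference turned between the litters for most members. It was positive in litter A and negative in litter B for 12 of 14 smooth muscle genes, 16 of 17 stroma genes and 3 of 4 vessel genes, against 31.0% of all tested genes. With median-of-ratios scaling this number was 29 of 35 instead of 31, since the small litter B differences of Smtn and Kdr changed sign. The median difference was 1.19 in litter A and -1.02 in litter B for smooth muscle, 1.11 and -1.28 for stroma and 0.41 and -0.52 for vessel genes. Over all tested genes the medians were 0.08 and -0.10, and median-of-ratios scaling moved them to 0.00 and 0.04.

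The difference between the litters, tested as the litter by genotype interaction, passed for 0 members and for 0 of all tested genes (0.0%) by limma. At an unadjusted p under 0.05 it held 3 smooth muscle genes, all 14 tested stroma genes and Pecam1, and 9.31% of all tested genes; these members share their libraries and are not independent of each other. No other tool was run for it. Bgn was nearest, with an interaction of 3.26 (SE 0.43, limma adjusted p = 0.0688), followed by Serping1 with 2.54 (SE 0.35, limma adjusted p = 0.0719). Of contractile genes Flna had 3.12 (SE 0.72, limma adjusted p = 0.228) and Acta2 3.73 (SE 1.41, limma adjusted p = 0.431). Acta1 was the 1 tested member with a negative interaction, -1.14 (SE 0.67, limma adjusted p = 0.660), and Mylk had 0.19 with a 95% confidence interval of -0.45 to 0.83.

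How much of this rests on single libraries differed between the compartments. Without ERBB3-dIE mice 4 and 5, which leaves mouse 6 alone and assumed to vary as the other groups do, the litter A median of the smooth muscle genes was -0.91 in place of 1.19. That of the stroma genes was 0.80 in place of 1.11. The interaction median then was 0.22 for smooth muscle and 2.14 for stroma, in place of 2.16 and 2.54. Without Erbb3-FF mouse 1, which leaves mouse 2 as the lone control of litter B, the litter B medians were -0.53 for smooth muscle, -0.92 for stroma and -0.08 for vessel genes, in place of -1.02, -1.28 and -0.52. Without Erbb3-FF mouse 3 the litter A medians were 0.82, 0.93 and 0.29.

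**Figure D4:**
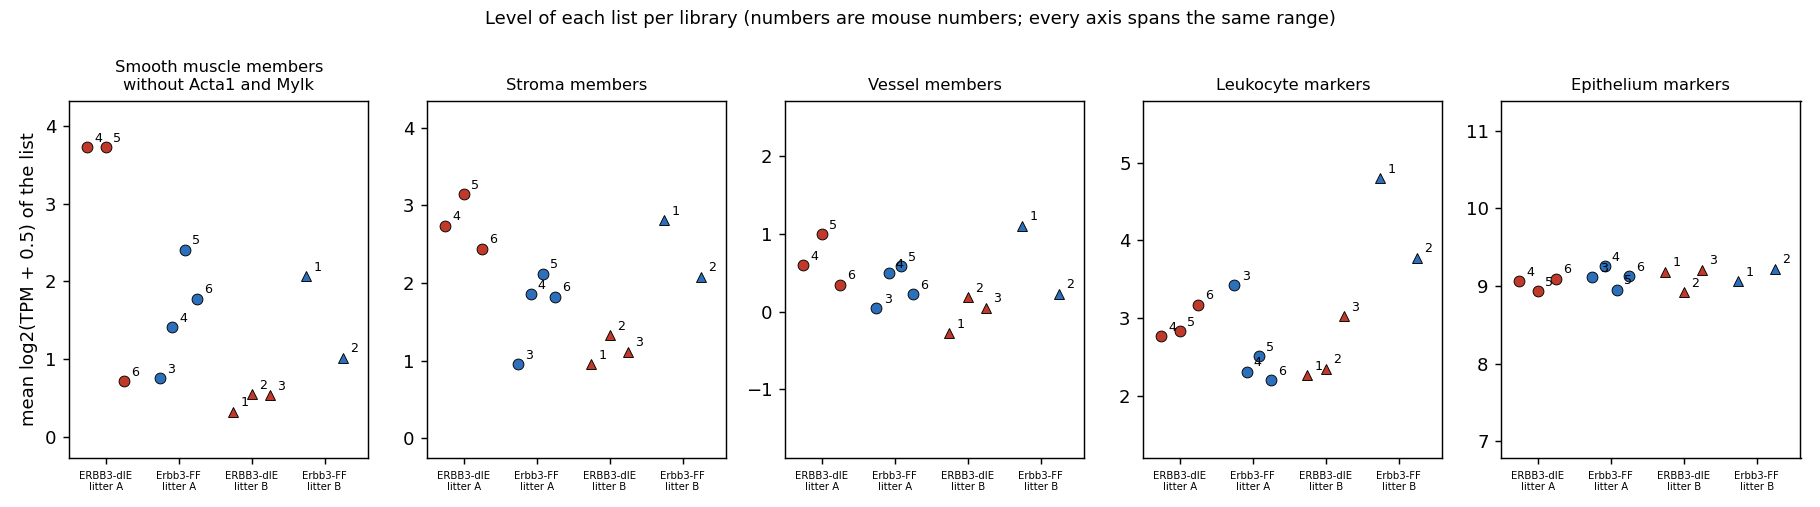
Mean log2(TPM + 0.5) of 5 gene lists in each library, red for ERBB3-dIE and blue for Erbb3-FF, circles for litter A and triangles for litter B, numbered by mouse, on axes of equal span. ERBB3-dIE mice 4 and 5 stand above the rest in smooth muscle genes and mouse 6 does not. Erbb3-FF mouse 1 is high in stroma, vessel and leukocyte lists. The mean of the epithelial markers stays within a narrow band, which does not show how single markers moved.

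Genes of neighbouring cell types were read beside the members. Of all tested genes 19.5% in litter A, 14.5% in litter B and 21.8% over both litters had an unadjusted p under 0.05. The shares past the threshold were 1.13%, 0.912% and 5.36% in the same order. Of 13 leukocyte markers 11 were tested, and the list's median difference was 0.56 in litter A and -1.59 in litter B. Lyz2, a lysozyme of myeloid cells, fell in litter B with a difference of -2.49 (SE 0.39, limma adjusted p = 0.0310). The plasma cell gene Mzb1 fell there too, with -2.12 (SE 0.36, limma adjusted p = 0.0310). The leukocyte genes summed to 166 to 360 TPM in the ERBB3-dIE mice of litter B and to 726 and 396 TPM in the Erbb3-FF mice. Their part in the stromal and vessel differences was not tested. Of 13 epithelial markers, all tested, none passed in either litter by limma (5 and 4 at an unadjusted p under 0.05), and their medians were -0.08 in litter A and -0.04 in litter B. Over both litters 7 of the 13 had an unadjusted p under 0.05, 1 passed higher and 1 lower. Vil1 (villin) had 520, 480 and 676 TPM in the ERBB3-dIE mice of litter A, below all 4 Erbb3-FF mice at 704 to 1098 TPM. Epcam, Krt20 and Cldn7 had the same order there, and Krt18 and Esrp1 the opposite one. Of all tested genes 11.7% had the upward order in litter A, and the share with the downward one is not given here. Single markers thus moved both ways in litter A, from -0.71 to 0.57, around the list median of -0.08.

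Markers of neurons were uneven between mice. The 16 neuron genes summed to 2.01 to 11.5 TPM in ERBB3-dIE mice and 4.29 to 16.3 TPM in Erbb3-FF mice, with Uchl1 at up to 7.15 TPM in ERBB3-dIE mice and 10.1 TPM in Erbb3-FF mice. The neuronal gene Elavl4 was at 0.203 TPM or less and the glial gene Sox10 at 0.197 TPM or less. No tested gene of these lists passed in either litter by limma. At an unadjusted p under 0.05 there were 0 and 1 neuron genes and 0 and 0 glia genes, against 19.5% and 14.5% of all tested genes. Of 16 neuron genes only Ret, the GDNF receptor kinase, was tested, and over both litters it fell by 0.65 (SE 0.17, limma adjusted p = 0.0467). Kit and Ano1, markers of interstitial cells of Cajal, the pacemaker cells of the muscle layer, are also made by mast cells and epithelium; Ano1 had a litter A difference of 0.93 (SE 0.31, limma adjusted p = 0.147). Upk1b, listed with the genes of the mesothelium, the sheet that covers the outer wall, had 8.59 to 18.01 TPM in ERBB3-dIE mice. It had 4.70 to 18.3 TPM in Erbb3-FF mice, and which cells made it was not tested. The 8 mesothelial genes summed to 10.8 to 18.9 TPM in ERBB3-dIE mice and 6.78 to 20.3 TPM in Erbb3-FF mice. Upk1b made up 18.3 TPM of the highest sum, and Wt1 was at 0.21 TPM or less in every library. Among the 8 genes Msln reached 0.801 TPM in ERBB3-dIE mice and 4.76 TPM in Erbb3-FF mice. Muc16 reached 2.53 TPM in ERBB3-dIE mice and 0.471 TPM in Erbb3-FF mice. The part of any of these cells in the members' differences was not tested.

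Further genes of the same compartments were counted from separate lists. Beside these counts, 19.5% of all tested genes in litter A and 14.5% in litter B had an unadjusted p under 0.05. Past the threshold were 1.13% in litter A, 0.912% in litter B and 5.36% over both litters. Of 30 other contractile genes 15 were tested and 1 fell in litter B: Svil (supervillin, an actin-linked membrane protein), by 0.86 (SE 0.17, limma adjusted p = 0.0491), and it fell over both litters by 0.60 (SE 0.12, limma adjusted p = 0.0205). The list's median was 0.36 in litter A and -0.25 in litter B. Of 32 other matrix genes 15 were tested, none passed in litter A or litter B by limma (10 and 4 at an unadjusted p under 0.05), and their medians were 0.73 and -0.54. Timp2, an inhibitor of metalloproteinases, had the smallest interaction p of that list, with 2.63, 4.25 and 3.51 TPM in ERBB3-dIE mice of litter A and 1.20 to 1.92 TPM in Erbb3-FF mice. Of 20 fibroblast subset genes 10 were tested, with list medians of 0.60 in litter A and -0.41 in litter B. Over both litters 1 passed higher, Ly6a, a surface protein also found on other cells, at 1.30 (SE 0.28, limma adjusted p = 0.0251). In litter B 1 fell, the complement protease C1s1, by 1.79 (SE 0.32, limma adjusted p = 0.0349). C1s1 had an interaction of 2.85 (SE 0.42, limma adjusted p = 0.0948), beside 2.54 for Serping1, which inhibits the same complement complex. Of 16 growth factor genes 6 were tested. Tgfb1, the growth factor that drives matrix production, fell in litter B by 1.65 (SE 0.28, limma adjusted p = 0.0310), with 2.23, 1.83 and 1.92 TPM in ERBB3-dIE mice and 10.1 and 5.23 TPM in Erbb3-FF mice.

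For the remaining vascular lists no gene passed in either litter by limma, where 1.13% and 0.912% of all tested genes were called. At an unadjusted p under 0.05 the shares of all tested genes were 19.5% in litter A and 14.5% in litter B. Of 20 other blood vessel genes 6 were tested (1 and 0 at an unadjusted p under 0.05), and Egfl7, a secreted protein of endothelium, had a litter A difference of 1.22 (SE 0.36, limma adjusted p = 0.112). Of 11 pericyte genes only Kcnj8, a potassium channel, was tested, at a litter B difference of -0.76 (SE 0.37, limma adjusted p = 0.395). Kcnj8 does not stand for its list. The 11 genes summed to 8.90, 9.82 and 3.04 TPM in ERBB3-dIE mice 4, 5 and 6, and to 2.71 to 5.31 TPM in the Erbb3-FF mice of litter A. In litter B the sums were 3.32, 3.75 and 4.35 TPM in ERBB3-dIE mice and 9.02 and 6.94 TPM in Erbb3-FF mice. Of 6 lymphatic genes 2 were tested (0 and 1 at an unadjusted p under 0.05), and Ccl21a, a chemokine of lymphatic endothelium and of the stroma of lymphoid tissue, had a litter B difference of -3.63 (SE 0.85, limma adjusted p = 0.0770). Ccl21a had 0.560, 4.36 and 1.43 TPM in the ERBB3-dIE mice of litter B and 64.9 and 10.4 TPM in the Erbb3-FF mice. Among 7 adipocyte genes Cidec, a lipid droplet protein that enterocytes make as well, fell in litter B by 2.20 (SE 0.27, limma adjusted p = 0.0105). Its litter A difference was -0.86 (SE 0.22, limma adjusted p = 0.0852). Over both litters, where 5.36% of all tested genes were called, Cidec fell by 1.41 (SE 0.25, limma adjusted p = 0.0119). Of 5 red blood cell genes 4 were tested and none passed in either litter by limma (1 and 0 at an unadjusted p under 0.05), with Hba-a1 at 18.4 to 40.2 TPM in ERBB3-dIE mice and 9.16 to 69.4 TPM in Erbb3-FF mice.

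The genes that are no members and ran most like the mean of the 11 tested smooth muscle genes over the 12 libraries were Cald1 (Pearson r 0.945), Atp11a (0.928), Sparcl1 (0.920), Cox18 (0.906), Tgfb1i1 (0.903), Foxf1 (0.894), Stard5 (0.885), Gja1 (0.885), Dusp3 (0.859) and Marveld1 (0.857). Without ERBB3-dIE mice 4 and 5 these values were 0.648 to 0.848. Cald1 (caldesmon, an actin-binding regulator of contraction) had 4.19, 3.65 and 1.20 TPM in ERBB3-dIE mice 4, 5 and 6 and 0.700 to 1.62 TPM in the Erbb3-FF mice of litter A. Foxf1, a transcription factor of gut mesenchyme, had 2.33, 2.68 and 1.34 TPM against 0.268 to 1.70 TPM. These genes were read in the same 12 libraries, and the values describe likeness of pattern only.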

How the data were processed

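Mucosal scrapings of the ileum from 12 mice were sequenced as single-end reads from a stranded mRNA kit, per the labels' protocols. Tools named in the notes of the submitters on processing (per the submitters' processing notes) are CASAVA, DESeq2 and Salmon 1.10.0, with build GRCm39; the annotation release is not given in the sources used here. The authors deposited 1 table with TPM per library. Per the file headers it also holds the authors' mean normalized signal per gene, their log2 fold change and its standard error, their Wald score, and their p-value and adjusted p-value.

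TPM are not counts, so log2(TPM + 0.5) was fitted with limma 3.58.1 in R 4.3.3 (lmFit, eBayes with a variance trend). A gene was kept if it reached 1 TPM in 6 or more libraries. The comparison over both litters had litter and genotype as additive terms; within-litter differences and the interaction came from 4 cell means with 1 shared spread. The steps were tested on simulated data. The log2 scale with a pseudocount understates the change of low genes, depth is unknown, and no intervals for counting error were made.

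The members and the other gene lists were chosen with earlier results of these data known, so no score or list was tested. Named were all members; of each other list up to 3 genes past the threshold within a litter or in the interaction, or else the gene with the smallest interaction p; and the 10 genes most like the smooth muscle mean. Epcam, Ptprc, Cd79a and the marker genes named beside a list at or near 0 were added as markers after their values were seen. So were Uchl1, Msln, Muc16, Ly6a, Jchain, Krt18, Krt20, Cldn7 and Esrp1. Actb and Actc1 were added as relatives of Acta1.

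Alternatives changed the pseudocount, the filter or the scaling, used a robust variance or weighted libraries, dropped litter from the model, blocked on mouse number, fitted 1 litter by itself, left out single mice, or left out ERBB3-dIE mice 4 and 5 together or Erbb3-FF mice 5 and 6, which are rich in ribosomal sequence. Mouse numbers were not taken as pairs of the genotypes. Deviations of same-numbered mice from their genotype means, which still hold the litter, correlated at 0.0739 to 0.357, not all over 0.1. Deviations from the means of each litter and genotype correlated at -0.249 to 0.148. No library was a copy of another (correlations 0.878 to 0.955). Promoter windows came from RefSeq, GRCm38.p6, and no gene coordinates of the table's build were used. Figures were drawn with matplotlib 3.10.9.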

Additional observations from a re-analysis of the deposited data

Results flagged for a closer look

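In 7 of 105 groups examined (each member in the ERBB3-dIE mice, in the Erbb3-FF mice and in the Erbb3-FF mice of litter A) 1 mouse stood far from the others of its group; chance flags about 1 in 20 groups. Erbb3-FF mouse 1 was the distant one for Flna (34.4 TPM), Dcn (26.0 TPM), Lum (2.12 TPM), Vim (51.9 TPM) and Pecam1 (4.93 TPM). This is also the mouse with the highest Ptprc and Cd79a levels. Erbb3-FF mouse 5 was the distant one of the 6 Erbb3-FF mice for Cnn1 (4.83 TPM) and Lmod1 (0.525 TPM).

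For Lum and Pdgfra, which were under the filter, all ERBB3-dIE mice lay above all Erbb3-FF mice in litter A and below them in litter B. Of all tested genes 11.7% had the first order and 23.7% the second, and the share with both is not given here. The tested stroma genes Col1a1, Col1a2, Col3a1, Col6a1, Col6a2, Bgn, Sparc, Fn1, Vim and Serping1 had both orders too. For Bgn the litter A order rested on 8.72 TPM in ERBB3-dIE mouse 6 against 8.70 TPM in Erbb3-FF mouse 5. Without the share of both orders among all tested genes, the pattern is not read as particular to the members. The genotype difference in litter A minus that in litter B was 1.63 for Lum and 2.21 for Pdgfra on the log2 scale, and it was not tested.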

How the results depend on the processing

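TPM hide depth, litter B has 2 Erbb3-FF mice, and most contractile genes lie at a few TPM. Over both litters 1 member rose and 1 fell; the rise was 0 with no filter, a mean filter, median-of-ratios scaling, robust variance, library weights, the replicate block, no litter term or without Erbb3-FF mice 5 and 6. The fall was 0 with no filter, no litter term, without Erbb3-FF mice 5 and 6 or without ERBB3-dIE mice 4 and 5, and 2 with either other scaling, library weights or the authors' Wald test. In litter A library weights gave 3 members higher. In litter B the 3 members lower became 7 with library weights, 1 with the replicate block, without Erbb3-FF mice 5 and 6 or without ERBB3-dIE mice 4 and 5, and 0 for litter B alone. The interaction had 2 members higher with no filter, a mean filter or library weights and 1 (Bgn) with the replicate block. Over both litters library weights also gave more calls among all tested genes, both higher and lower. The numbers of all tested genes called in litter A, in litter B and for the interaction under these alternatives are not given here. The member counts under them are therefore not read on their own. The cause of these shifts was not tested.

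Without ERBB3-dIE mice 4 and 5 the smooth muscle median was -1.03 over both litters, -0.91 in litter A and 0.22 for the interaction, and the stroma median over both litters -0.42. A pseudocount of 0.1 gave interaction medians of 2.96 for stroma and 1.45 for vessel genes. Leaving out 1 mouse at a time, over both litters 0 to 1 member was higher and 0 to 1 lower, with medians of -0.27 to 0.61 for smooth muscle, -0.16 to 0.51 for stroma and -0.25 to 0.16 for vessel genes. In litter A 0 to 3 members were higher, with medians of 0.54 to 2.37 for smooth muscle, 0.93 to 1.40 for stroma and 0.28 to 0.53 for vessel genes. In litter B 0 to 5 were lower, with medians of -1.66 to -0.53, -1.67 to -0.915 and -0.965 to -0.0801 in the same order. The interaction had 0 to 4 members higher and medians of 1.31 to 3.34, 2.01 to 2.81 and 0.42 to 1.52. Over all tested genes, calls over both litters ranged over the alternatives from 43 higher and 65 lower upward, against 209 and 467. With 1 mouse left out at a time, all tested genes gave 95 to 213 calls higher and 190 to 621 lower over both litters. In litter A they gave 0 to 61 higher and 0 to 177 lower, and in litter B 2 to 81 higher and 6 to 280 lower. For the interaction they gave 0 to 33 higher and 0 to 3 lower, so the member ranges are not read on their own. The sign turned for no called member. For single members 2291 values under an alternative were the same as reported in direction and side of the threshold, 114 changed sign with no call on either side (Acta2, Actg2 and Tagln over both litters among them), 57 lost a call and 34 gained one.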
